A study of Mus musculus with 24 samples.

Results

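The autosomal imprinted genes described here are 40 genes of the mouse genome known for expression from the copy of a single parent, in part in some tissues only. They were listed by symbol and looked up in the table of 37315 genes through the Ensembl identifiers of GENCODE vM21. Of the 40 members, 35 had a row. Snrpn, Kcnq1ot1, Rian, Mirg and Peg13 were not analysed here. No member was too low to judge in every population, 32 reached a mean of at least 100 normalized counts in a population, and the other 3 peaked lower, Zim1 at a mean of 82.4, Ascl2 at 77 and Rasgrf1 at 17.3. The values are total RNA of both copies, so they cannot show a gain or a loss of imprinting.

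The study made 24 RNA libraries, 2 per population, from 12 populations of the PaX system, a mouse ESC line with a M. musculus (129S1/SvImJ) and a M. castaneus (CAST/EiJ) genome, a GFP reporter in Hprt on the X chromosome of M. musculus, a truncated Tsix that biases this X towards inactivation, a doxycycline-inducible cassette of cMyc, Klf4, Oct4 and Sox2 with its transactivator in Sp3, and an RFP driven by the Nanog promoter. The starting populations were ESCs, kept in serum and LIF, and NPCs, neural precursor cells made from them. NPCs were then reprogrammed with doxycycline, L-ascorbic acid and LIF on irradiated fibroblasts of male embryos as feeders, either without IFNγ (control) or with 10 ng/ml IFNγ from day 0 to 5. Cells of both arms were sorted at day 2 as those without the dye of the feeders, at day 5 by the surface marker SSEA1, and at day 7 as SSEA1-positive cells in 3 gates of GFP intensity named X-GFP-negative, -medium and -high, which rank cells by the activity of the reporter X chromosome. At day 7 the IFNγ-treated cells had thus been without IFNγ since day 5. All groups derive from 1 line, and p-values measure the spread between 2 libraries a group.

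Imprinted genes carry DNA methylation marks set in the egg or the sperm at control regions, and most lie in clusters in which maternally and paternally expressed genes alternate. After fertilization the marks are kept by ZFP57 and ZFP445, zinc finger proteins that bring in TRIM28, and by the maintenance methylase DNMT1. Many members regulate fetal growth: Igf2 is a growth factor expressed from the paternal copy, and Igf2r, the maternally expressed receptor that clears it, works against it. Imprints are known to be fragile in cultured pluripotent cells, the Dlk1-Dio3 cluster with Meg3 above all.

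Each library held between 24746109 and 37056508 reads on genes. In the markers, ESCs had 136824 to 144088 summed normalized counts of 6 pluripotency genes against 63.2 to 96.3 in NPCs, and the day 7 X-GFP-high cells had 110515 to 131956. RNA of 4 Y-linked genes, which marks the male feeders because the line is female, summed to 125 to 253 at day 2, at most 12.5 at days 5 and 7 and at most 1.94 in ESCs and NPCs. The fibroblast list of 10 genes summed to 46599.6 to 67195 in control and 28152 to 33364 in treated cells at day 2, but also to 30803 to 43633 in NPCs. Fewer cells of a type and less RNA per cell cannot be told apart in these bulk libraries.

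Some members share their place with other RNAs, and these sequences are shown because such RNAs can add reads to Rtl1, H19 and Igf2, or share them. Rtl1, a retrotransposon-derived gene of the paternal copy (chr12:109589193-109600330, minus strand, GRCm38/mm10), holds 7 miRNA hairpins in its interval, 6 of them on the other strand, where they belong to maternally expressed RNA. Of 13 mature miRNAs in the interval, 11 had a full complement in an Rtl1 transcript, so these can pair with Rtl1 RNA along their whole length. The mature sequences of RefSeq follow for 1 arm of each of the 4 hairpins summed further on, 5′ to 3′, with the seed (bases 2 to 8) in capitals.
miR-431-5p: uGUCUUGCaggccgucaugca
miR-433-3p: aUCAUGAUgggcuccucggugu
miR-127-3p: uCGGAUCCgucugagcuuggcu
miR-434-3p: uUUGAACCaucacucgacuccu
The 4 seeds differ from each other. The coordinates were chr12:109590459-109590479 for miR-431-5p, chr12:109591781-109591802 for miR-433-3p, chr12:109592888-109592909 for miR-127-3p and chr12:109594565-109594586 for miR-434-3p, all on the plus strand. In contrast, the hairpins of H19 and Igf2 lie on the strand of their host. Those sequences are printed for comparison.
miR-675-3p: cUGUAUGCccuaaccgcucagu
miR-483-3p: uCACUCCUccccucccgucuu
H19 is at chr7:142575529-142578143 and Igf2 at chr7:142650766-142666816, both on the minus strand. Mature miRNAs are too short for these libraries and were not measured, and counts on a hairpin gene come from the longer RNA around it.

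A second set of sequences shows the letters that ZFP57 recognizes when methylated, TGCCGC, in the 250 bases before gene starts. It was searched on both strands, so it reads GCGGCA on the other. RefSeq promoters on GRCm38.p6 were found for 33 of the 40 members, with 51 starts. The letters were in 7 of these 51 windows (13.7%) and in 8.68% of 32851 windows of all genes, and windows with at least 2 matches were 3 of 51 (5.88%) against 0.874%. The letters hold a CG pair, and member windows were richer in such pairs. Their median ratio of CG pairs to those expected from base content was 0.595 against 0.373 in all windows. Median GC content was 54.8% against 52.4%. The part of base content in the matches was not tested. These 3 are 2 places, since starts of Mest that lie 3 bases apart give overlapping windows with the same matches. The other is a window of Zdbf2 with 3 matches. A window of Mest, with 2 matches, and those of Meg3 and Plagl1, with 1 each, are printed with matches in capitals.
Mest: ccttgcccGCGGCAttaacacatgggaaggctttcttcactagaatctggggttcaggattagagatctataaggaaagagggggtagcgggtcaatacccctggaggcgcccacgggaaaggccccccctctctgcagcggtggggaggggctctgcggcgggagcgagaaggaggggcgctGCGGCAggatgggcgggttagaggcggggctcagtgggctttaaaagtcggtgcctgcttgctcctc
Meg3: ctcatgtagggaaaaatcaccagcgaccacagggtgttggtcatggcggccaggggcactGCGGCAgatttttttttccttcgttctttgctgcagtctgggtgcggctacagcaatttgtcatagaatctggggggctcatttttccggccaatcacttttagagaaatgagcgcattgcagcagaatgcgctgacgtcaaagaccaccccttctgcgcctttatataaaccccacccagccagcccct
Plagl1: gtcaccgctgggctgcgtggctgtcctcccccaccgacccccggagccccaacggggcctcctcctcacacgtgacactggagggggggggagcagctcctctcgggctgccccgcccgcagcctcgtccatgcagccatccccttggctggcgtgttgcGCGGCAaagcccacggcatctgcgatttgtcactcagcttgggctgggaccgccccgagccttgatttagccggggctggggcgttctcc
They lie at chr6:30737800-30738049, chr12:109540746-109540995 and chr10:13090582-13090831, all on the plus strand. A match is a description of the letters, not of binding, and the marked control regions often lie elsewhere.

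Over the 12 populations the highest level was most often that of NPCs. For 16 of 35 members the highest mean was that of NPCs, for 3 that of ESCs, and for 13 the lowest was that of ESCs. The same shares over all genes were not computed, so these counts are a description only. Per kilobase of exon, the members with the highest level in any population were H19 in day 2 IFNγ-treated cells (23147 normalized counts per kilobase), Nnat in NPCs (18112), Mest in NPCs (12348) and Peg10 in NPCs (7346). At the other end Rasgrf1 reached at most 1.57 and Zim1 10.2.

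**Figure D1:**
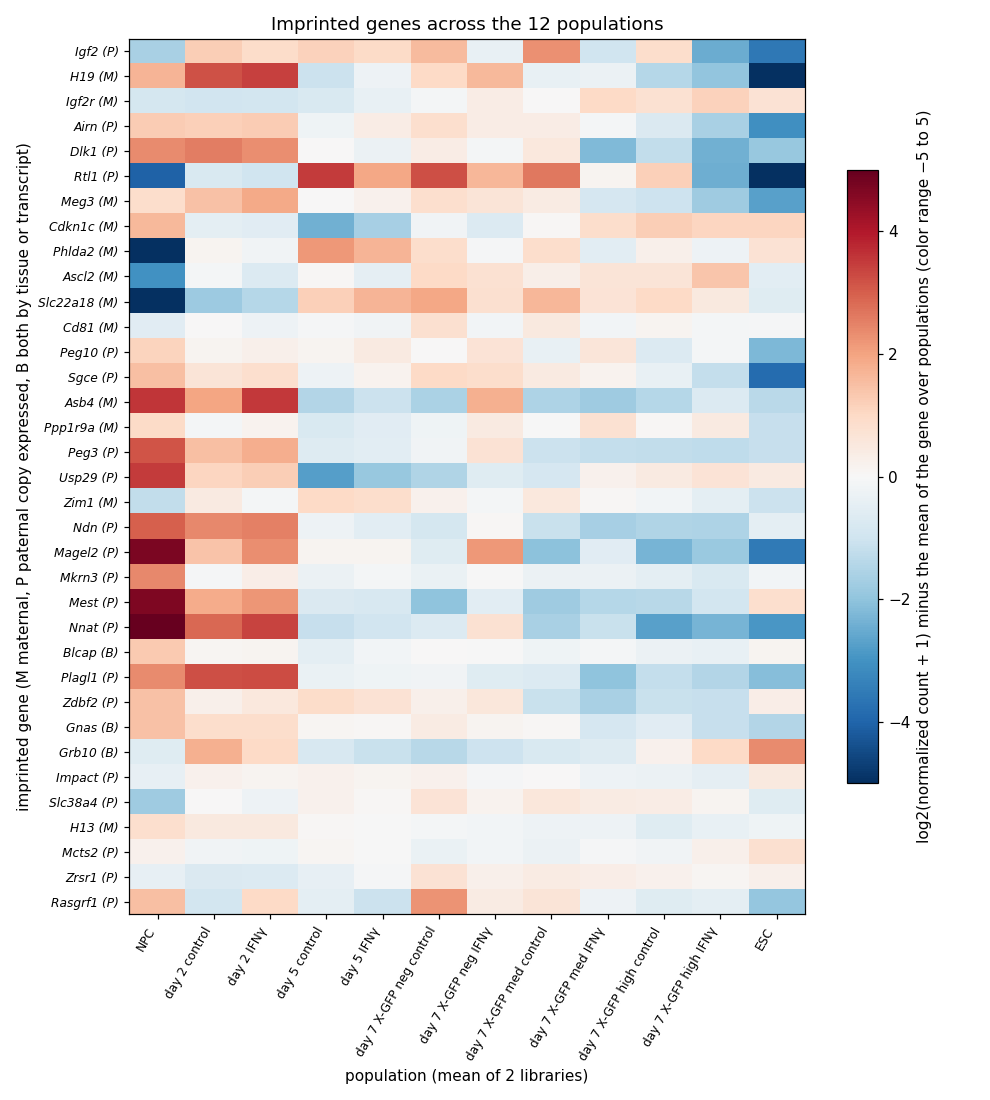
Level of each of the 35 members (rows) in the 12 populations (columns), as log2(normalized count + 1) of the mean of 2 libraries minus the mean of the gene over populations, with red above and blue below that mean. Nnat, Mest and Magel2 are deep red in the NPC column, and Rtl1, H19 and Sgce are deep blue in the ESC column.

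ESCs and NPCs, the end points of reprogramming, were compared first. In ESCs 22 of 33 members tested were lower (43.4% of all genes) and 10 higher (42.2%) than in NPCs, with a median log2 fold change of -2.12 against -0.027 over all genes. The share of all genes called was 85.6%, so the call itself says little, and the direction of the members carries the description. Among paternally expressed members 14 were lower and 4 higher, and among maternally expressed ones 6 were lower and 5 higher. The 14 include Magel2 and Airn, and the 5 include Phlda2, Ascl2 and Slc22a18, each with a mean under 10 in 1 group. This split is therefore not read as a contrast of the parental copies. Nnat, a small membrane protein of developing brain, had 36490.3 and 29763 normalized counts in NPCs and 47.2 and 51.4 in ESCs, 672 times less (log2 -9.36 ± 0.11 (SE), limma adjusted p = 1.44e-06). Magel2, a Prader-Willi region gene that acts in ubiquitin ligase complexes, had 989 and 1082 in NPCs and 2.95 and 1.90 in ESCs, where it was at the floor of 3 reads a library, so it was at least 357 times lower. H19, a long RNA of the maternal copy, fell from 16636 and 17334 to 110.1 and 116 (limma adjusted p = 1.07e-06). Sgce and Asb4, neighbours of Peg10, were 42.4 and 33 times lower in ESCs. The other direction was led by Phlda2, a maternally expressed restraint on placental growth, with 0.972 and 3.51 in NPCs, which is 5 reads in all, and 293 and 267 in ESCs. Grb10, an adaptor that dampens insulin and IGF signaling, was 7.77 times higher in ESCs, Igf2r 3.04 times, the amino acid transporter Slc38a4 2.24 times and the translation regulator Impact 1.86 times. Slc22a18, an organic cation transporter, had 0 reads in both NPC libraries and 34.4 and 25.7 in ESCs. Phlda2, Magel2, Airn, Ascl2 and Slc22a18 had a mean under 10 in 1 of both groups. They were tested through the group in which they were high, so their place in the counts carries no weight.

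The control cells at day 2 were then compared with NPCs, and those at day 5 with day 2, to follow the members without IFNγ. At day 2, 17 of 33 members were lower and 12 higher than in NPCs, while of all genes 37.6% were lower, 31.6% higher and 69.2% called. Nnat (2518 and 3061) was 11.9 times lower, Magel2 (69.2 and 142) 9.81 times, Mest, an alpha/beta hydrolase of mesoderm (6728 and 7134), 7.03 times, the ubiquitin ligase Mkrn3 (225 and 260.0) 5.57 times, and Usp29, a deubiquitinase next to Peg3 (105 and 169.7), 5.29 times. Igf2 rose 7.17 times, from 444 and 466 to 4112 and 2416 (limma adjusted p = 0.000253), Grb10 5.26 times, Slc38a4 3.44 times and H19 2.80 times, to 59797 and 35478. The Y-linked RNA of feeders and the collagen gene Col1a1 (621 and 698 in NPCs, 12559 and 9244 at day 2) moved the same way as Igf2, H19 and Grb10 at this step, and their part in it was not tested. Phlda2 went from 0.972 and 3.51 to 226 and 142. Phlda2, Rtl1 and Ascl2 had means under 10 in NPCs and were tested through day 2 cells alone. Their place in the counts thus carries no weight.

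From day 2 to day 5, 19 of 34 members fell and 7 rose, while of all genes 35.6% fell and 34.9% rose (70.6% called). H19 fell 18.9 times to 3019 and 2030.2, Nnat 16.4 times to 190.2 and 151, Usp29 16 times, Asb4 11.5 times and Plagl1, a zinc finger protein that governs a network of imprinted genes, 11.9 times to 1002 and 690.0 (limma adjusted p = 5.57e-06). Col1a1 fell over the same step, to 439 and 321, as did the Y-linked RNA, and their part was not tested. Rtl1 rose from 56 and 90.3 to 2131 and 694, 19.3 times (limma adjusted p = 0.000288), although its libraries at day 5 differed widely. Slc22a18 rose 8.60 times to 104 and 113, and Phlda2 4.10 times to 690.1 and 819.7. Usp29 and Cdkn1c had means under 10 at day 5 and were tested through day 2 cells alone. Their place in the counts thus carries no weight. The calls of Mcts2 (1.22 times higher), a retrogene inside H13, and Zrsr1 (1.25 times), a splicing factor retrogene inside Commd1, were lost when libraries were rescaled to the same total, which lowered the median of all genes by 0.13 on the log2 scale and left 3 members higher and 20 lower. Both were lost as well without day 2 replicate 2 or day 5 replicate 2, and that of Mcts2 without day 2 replicate 1. Reads of retrogenes may be shared with their parent genes.

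At day 7 the control populations of the 3 gates were compared in order of reporter activity. X-GFP-negative cells differed from day 5 cells in 27 of 33 members, 19 higher and 8 lower, and of all genes 34.2% were higher and 29.5% lower (63.7% called). Usp29 and Cdkn1c had means under 10 at day 5 and were tested through X-GFP-negative cells alone. Their place in these counts carries no weight. H19 rose 4.17 times to 11526 and 9538, Sgce, an epsilon-sarcoglycan, 2.37 times to 1696 and 1593, Zrsr1 2.16 times, Airn, the long RNA that runs against Igf2r, 2.12 times to 127 and 93.3, and the tetraspanin Cd81 1.84 times. Mest fell 2.45 times to 467 and 476, Phlda2 2.42 times, Zdbf2 1.61 times (a call lost without day 5 replicate 1 or either X-GFP-negative library, adjusted p up to 0.545 in limma), Ndn 1.55 times and Mcts2 1.35 times.

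Towards higher X-GFP the members mostly declined. In X-GFP-medium against X-GFP-negative control cells 19 of 34 members were lower and 5 higher (all genes 25.2% and 21.9%, 47.0% called), and in X-GFP-high against X-GFP-medium control cells 21 of 33 were lower and 5 higher (all genes 32.7% and 31.4%, 64.1% called). Rasgrf1 and Magel2 had means under 10 in X-GFP-medium control cells. At the first step they were tested through X-GFP-negative cells alone, so their place in its count carries no weight. The first step lowered H19 (2.58 times), Zdbf2 (2.57 times), Nnat (1.95 times), Peg3, a zinc finger protein of maternal behavior (1.89 times), and Rtl1 (1.50 times), while Igf2 (1.61 times), Mest (1.19 times) and Ppp1r9a (1.15 times) were higher. The last 2 calls were lost without either X-GFP-medium control library for Mest, and without X-GFP-medium replicate 2 or X-GFP-negative replicate 1 for Ppp1r9a (adjusted p up to 0.228 and 0.305 in limma). The second step lowered Dlk1, a membrane-bound Notch-like inhibitor of differentiation (3.46 times), Meg3 (2.70 times), Rtl1 (2.67 times), Igf2 (2.64 times) and Nnat (2.16 times). It raised Cdkn1c, a maternally expressed cell cycle inhibitor (2.27 times), Grb10 (1.99 times), Igf2r (1.71 times) and Mest (1.29 times). The 3 members of the Dlk1-Dio3 cluster with a row, from both parental copies, were each lower at the second step (limma adjusted p = 1.29e-07 for Dlk1, 4.92e-11 for Meg3 and 8.43e-09 for Rtl1).

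The main comparison was that of IFNγ-treated with control cells. At day 2, during the treatment, 7 of 34 members passed the threshold, against 8.49% of all genes. Of these 5 were higher (all genes 5.03%) and 2 lower (3.45%). Asb4, an ankyrin protein of the Peg10 cluster, had 116 and 123 normalized counts in control and 315 and 404 in treated cells, 3.01 times more (log2 1.57 ± 0.16 (SE), limma adjusted p = 0.00358), and the groups did not overlap. Meg3, the maternally expressed long RNA, rose 1.36 times, from 12886 and 12769 to 16943 and 17923 (limma adjusted p = 0.00728). Nnat rose 1.41 times, Mest 1.25 times and Peg3 1.24 times. The call of Mest was lost without control replicate 1 or IFNγ replicate 1 (adjusted p up to 0.109 in limma), and that of Peg3 without IFNγ replicate 2 (0.127). All 5 had higher means in NPCs and in day 2 control cells than in day 5 control cells. The share of all genes with that order was not computed, so this is a description only. From day 2 to day 5 in control cells 19 of 34 members fell, and 35.6% of all genes. A list of 6 neural precursor markers summed to 46636 to 49657 in control and 54644 to 54706 in treated day 2 cells. Its part in these rises was not tested. Grb10 fell 1.75 times, from 592 and 528 to 304 and 336 (limma adjusted p = 0.0124), and Slc38a4 1.21 times, a call lost without IFNγ replicate 2 or either control library (adjusted p up to 0.266 in limma). The fibroblast list was lower with IFNγ at this day, as given before. In it Col1a1 had 12559 and 9244 in control and 5763 and 5645 in treated cells. The Y-linked sums of the arms overlapped, with 253 and 218 in control and 125 and 223 in treated cells. The part of either in the fall of Grb10 was not tested. H19 had 59797 and 35478 in control and 71016 and 42867 in treated cells, so that replicate 1 was the higher library in both arms and the groups overlapped (log2 0.26 ± 0.30 (SE), limma adjusted p = 0.682).

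At day 5 limma called 0 of 34 members, against 2.18% of all genes, and DESeq2 called 4. At an unadjusted p under 0.05 in limma were 5 members, and 2839 of all 15133 genes tested. Without IFNγ replicate 1 limma called 8, and without control replicate 1 it called 1. H19 was nearest to the threshold, with 3019 and 2030.2 in control and 4757 and 4056 in treated cells (log2 0.83 ± 0.18 (SE), limma adjusted p = 0.106). Rtl1 had 2131 and 694 in control and 815 and 146 in treated cells, a log2 difference of -1.82 ± 0.81 (SE) that missed the threshold, with overlapping libraries (limma adjusted p = 0.286). The difference of the IFNγ effect between day 5 and day 2 passed the threshold for 0 of 34 members in limma, against 0.676% of all genes. At an unadjusted p under 0.05 were 3 members, and 1539 of all 15837 genes tested.

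At day 7 the members moved in both directions in each gate. In the X-GFP-negative gate 13 of 35 members rose with IFNγ (all genes 31.1%) and 12 fell (30.8%). In the X-GFP-medium gate 9 of 33 rose (all genes 33.3%) and 14 fell (29.6%). In the X-GFP-high gate 7 of 33 rose (all genes 18.1%) and 12 fell (20.4%). These are 71.4%, 69.7% and 57.6% of the members tested, and of all genes 61.9%, 62.9% and 38.5% were called. Asb4 and Rasgrf1 in the X-GFP-negative gate and Magel2 in the X-GFP-medium gate were tested through the arm in which they were high, since the other arm had a mean under 10, so their place in the counts carries no weight. Without control replicate 1 of the X-GFP-high gate 11 of its members passed instead of 19. From here on, pairs of library values joined by "against" are control against IFNγ-treated cells. In X-GFP-negative cells rescaling to the same total moved the median of all genes by 0.16 on the log2 scale and the split of the members to 15 higher and 8 lower. In all 3 gates 4 members were higher (Igf2r, Mest, Peg10 and Ppp1r9a) and 8 lower (Igf2, Rtl1, Dlk1, Phlda2, Cd81, Gnas, Impact and Slc38a4). The share of all genes called the same way in all 3 gates was not computed, so these counts are a description only. With rescaled libraries Dlk1, Gnas and Impact lost their call in X-GFP-negative cells, which left 5 lower, and Mcts2 joined those that were higher. When any 1 library was left out, a call was lost in at least 1 gate for Igf2r, Mest, Dlk1, Phlda2, Cd81, Impact and Slc38a4. Peg10 and Ppp1r9a were higher and Igf2, Rtl1 and Gnas lower in all gates whichever library was left out.

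**Figure D2:**
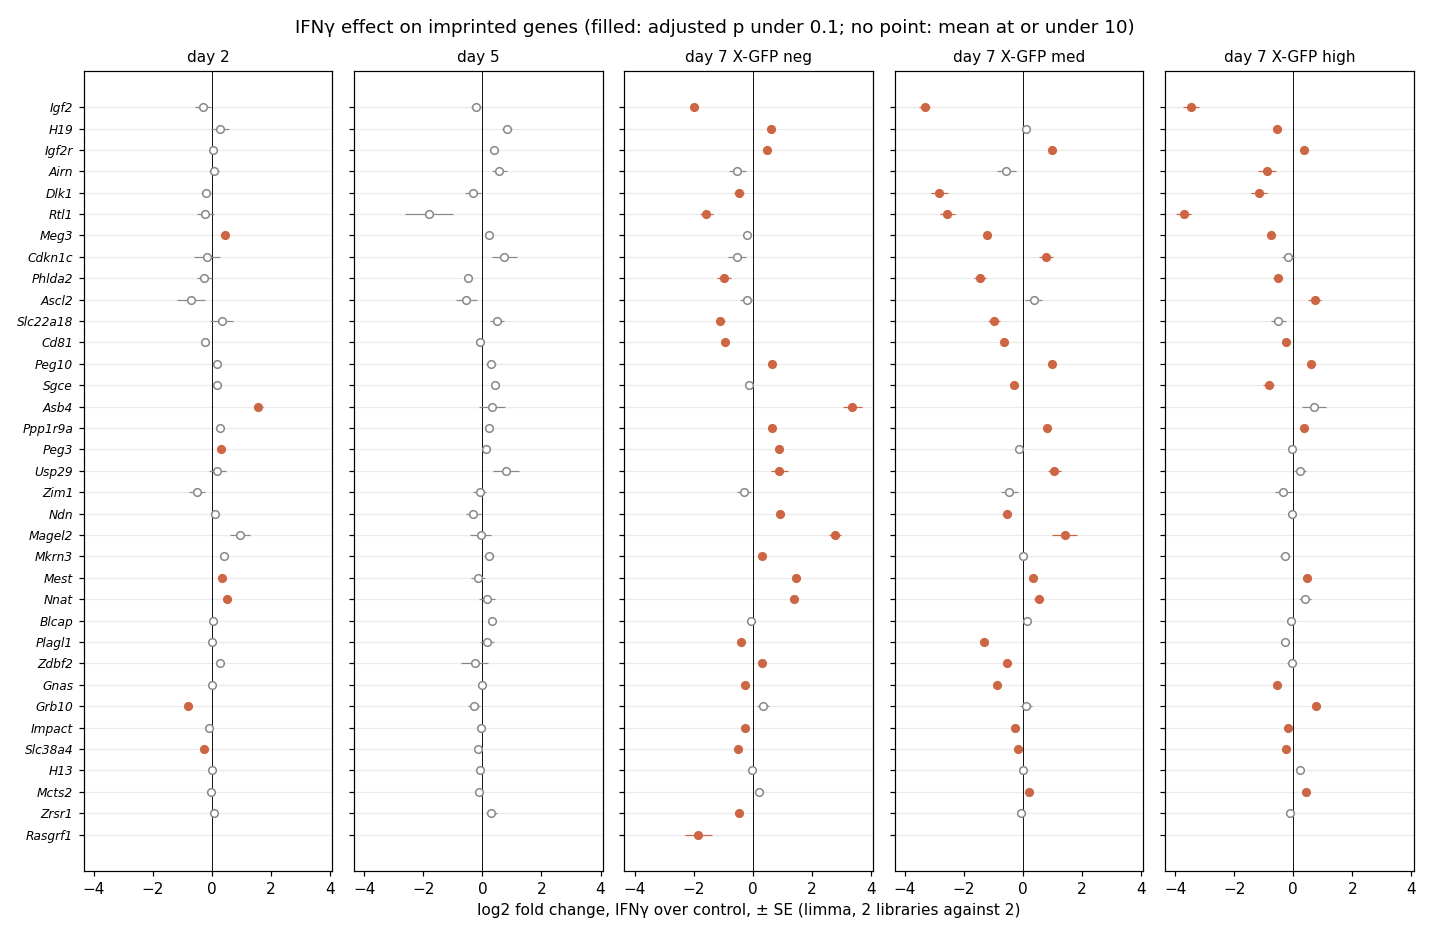
Log2 fold change of each member (rows) between IFNγ-treated and control cells, with its SE as bar, in the 5 comparisons (panels). Igf2 and Rtl1 are far to the left in all 3 day 7 panels, whereas at day 5 every point is open, which marks members that did not pass the threshold.

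Igf2 fell in every gate at day 7. In X-GFP-negative cells it had 4113 and 4262 normalized counts in control and 999 and 1118 in treated cells, 3.96 times less (log2 -1.99 ± 0.076 (SE), limma adjusted p = 7.34e-07). The X-GFP-medium cells had 6783 and 6734 against 503 and 894, 9.68 times less (log2 -3.33 ± 0.20 (SE), limma adjusted p = 1.09e-06). The X-GFP-high cells had 2746 and 2378 against 152 and 347, 10.3 times less (log2 -3.47 ± 0.26 (SE), limma adjusted p = 3.27e-06). The libraries of the arms did not overlap in any gate. At day 2 (4112 and 2416 against 3170.0 and 2033) and day 5 (3555 and 2667 against 3042 and 2280.0) they overlapped, with adjusted p-values of 0.596 and 0.515 in limma. H19, its neighbour on the other parental copy, fell with Igf2 past the threshold in X-GFP-high cells only. It was higher with IFNγ in X-GFP-negative cells (11526 and 9538 against 18437 and 14377, log2 0.63, limma adjusted p = 0.00173), and lower in X-GFP-high cells (2171 and 1732 against 1428 and 1244, log2 -0.54, limma adjusted p = 0.00293). The medium gate had 4369 and 3807 against 4263 and 4434 (limma adjusted p = 0.305). Igf2r was higher with IFNγ in each gate, by 0.48, 0.98 and 0.36 on the log2 scale, with 3689 and 4192 in control and 8362 and 7212 in treated X-GFP-medium cells. In X-GFP-high cells it had 6482 and 6958 against 10029.5 and 7369, a call lost without control replicate 1 or IFNγ replicate 1 (adjusted p up to 0.206 in limma, log2 down to 0.13). Airn had 33 and 38.4 in control and 21.7 and 16.2 in treated X-GFP-high cells (log2 -0.89 ± 0.31 (SE), limma adjusted p = 0.0492), a call lost without either control library or IFNγ replicate 2 (adjusted p up to 0.233), and missed the threshold in the other gates. Whether the authors counted reads by strand is not given in the sources used here, and Airn overlaps Igf2r.

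**Figure D3:**
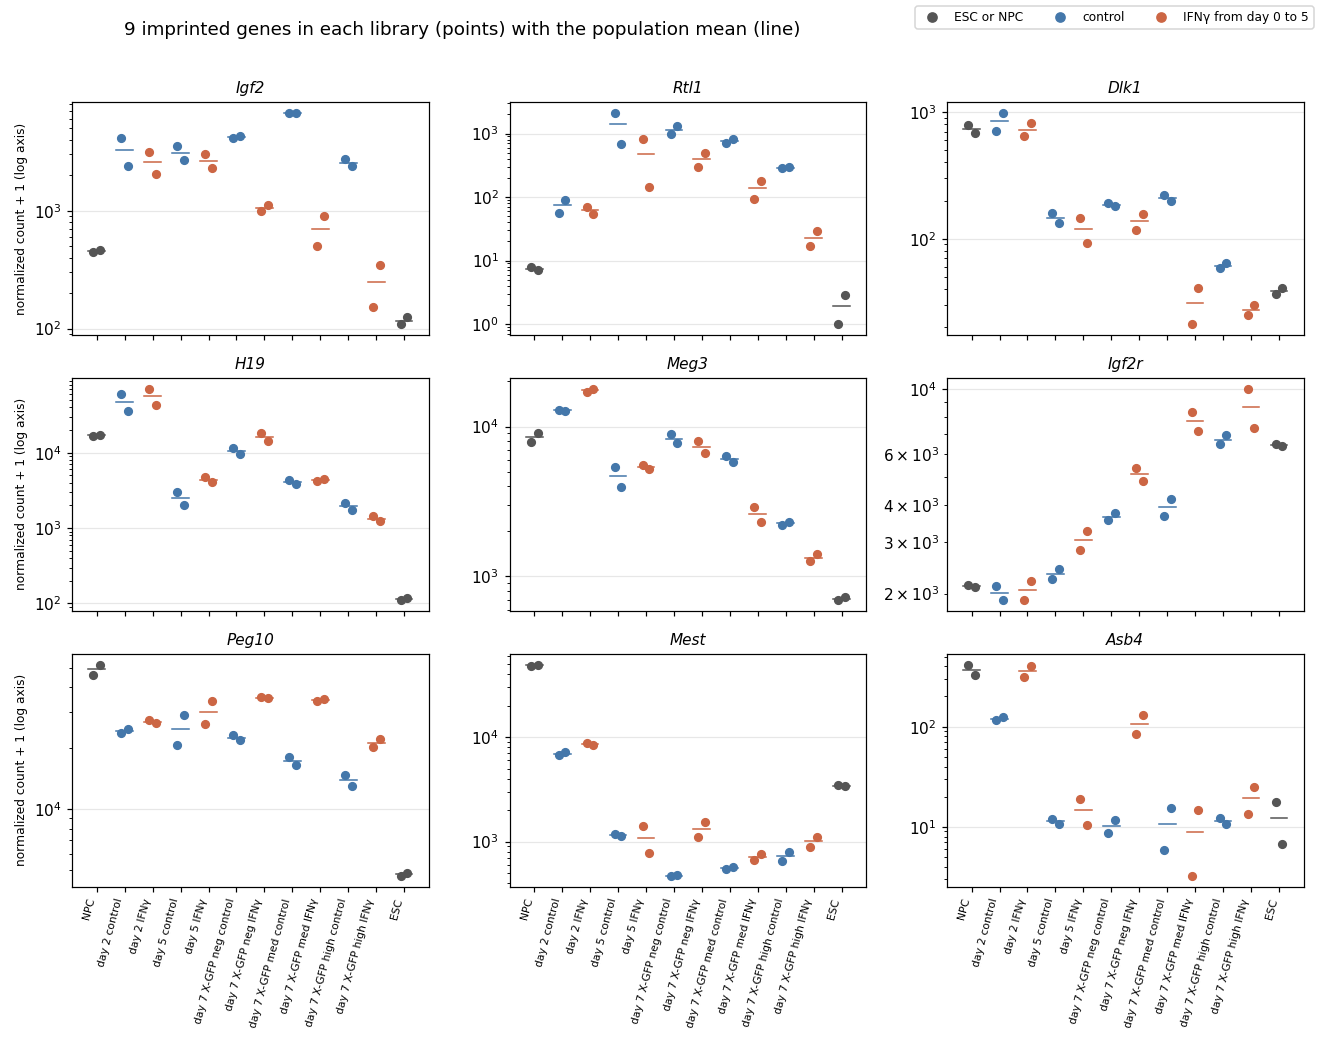
Normalized count + 1 (log axis) of 9 members in each library (points, with the population mean as a line), over the 12 populations in order of the time course, with ESCs last. The orange points of Igf2, Rtl1 and Dlk1 lie below the blue ones in the day 7 gates, those of Igf2r and Peg10 above, and H19 is highest at day 2 and lowest in ESCs.

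Rtl1 and Dlk1, from the paternal copy of the Dlk1-Dio3 cluster, fell with IFNγ as well. Rtl1 had 983 and 1322 in control and 301 and 488 in treated X-GFP-negative cells (2.92 times less, limma adjusted p = 0.000247), 712 and 824 against 92.9 and 179 in X-GFP-medium cells (5.65 times, limma adjusted p = 1.6e-05), and 283 and 294 against 16 and 27.7 in X-GFP-high cells (13.2 times, limma adjusted p = 1.81e-06). No IFNγ-treated library reached the lower control library of its gate. Dlk1 had 219 and 198 in control and 20.2 and 39.7 in treated X-GFP-medium cells (6.97 times less, log2 -2.84 ± 0.29 (SE), limma adjusted p = 2.48e-05). It changed less in the other gates, by -0.46 ± 0.17 in X-GFP-negative and -1.17 ± 0.26 in X-GFP-high cells on the log2 scale (SE). The call in X-GFP-negative cells was lost without either control library or IFNγ replicate 1 (adjusted p up to 0.26 in limma). Meg3, from the maternal copy, was lower in X-GFP-medium cells (6398 and 5828 in control, 2922 and 2318 with IFNγ, limma adjusted p = 5.61e-06) and in X-GFP-high cells (1.69 times, limma adjusted p = 4.19e-05). Its groups overlapped in X-GFP-negative cells (log2 -0.18 ± 0.097 (SE), limma adjusted p = 0.144).

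The miRNA hairpins printed above, which lie inside Rtl1 on the other strand, varied less in their ratio to Meg3 than in that to Rtl1 over the populations. The 4 hairpin genes Mir431, Mir433, Mir127 and Mir434 were looked at after the values of Rtl1 were seen. Their summed count was 170.2 and 163 in NPCs, where Rtl1 had 6.81 and 6.15, and 95.1 and 82.6 in day 5 control cells, where Rtl1 had 2131 and 694. By population means, the ratio of Meg3 to the hairpin sum ranged from 27.7 to 97.7, and that of Rtl1 to the hairpin sum from 0.0388 to 15.9 without ESCs, where Rtl1 was at the floor. In single libraries the ratio of Meg3 ranged from 25.3 to 110.1, and it was 110.1 and 32.2 in treated X-GFP-high cells. Mir127 had 37.6 and 27.9 in control and 13.4 and 25.1 in treated X-GFP-medium cells (log2 -0.78 ± 0.36 (SE), limma adjusted p = 0.0926), and 53.8 and 41.8 against 68.7 and 65.3 in X-GFP-negative cells (log2 0.49 ± 0.22 (SE), limma adjusted p = 0.0875). In the latter gate this hairpin was higher while Rtl1 was lower, and the other hairpins tested there, Mir433, Mir434 and Mir432, did not pass the threshold.

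**Figure D4:**
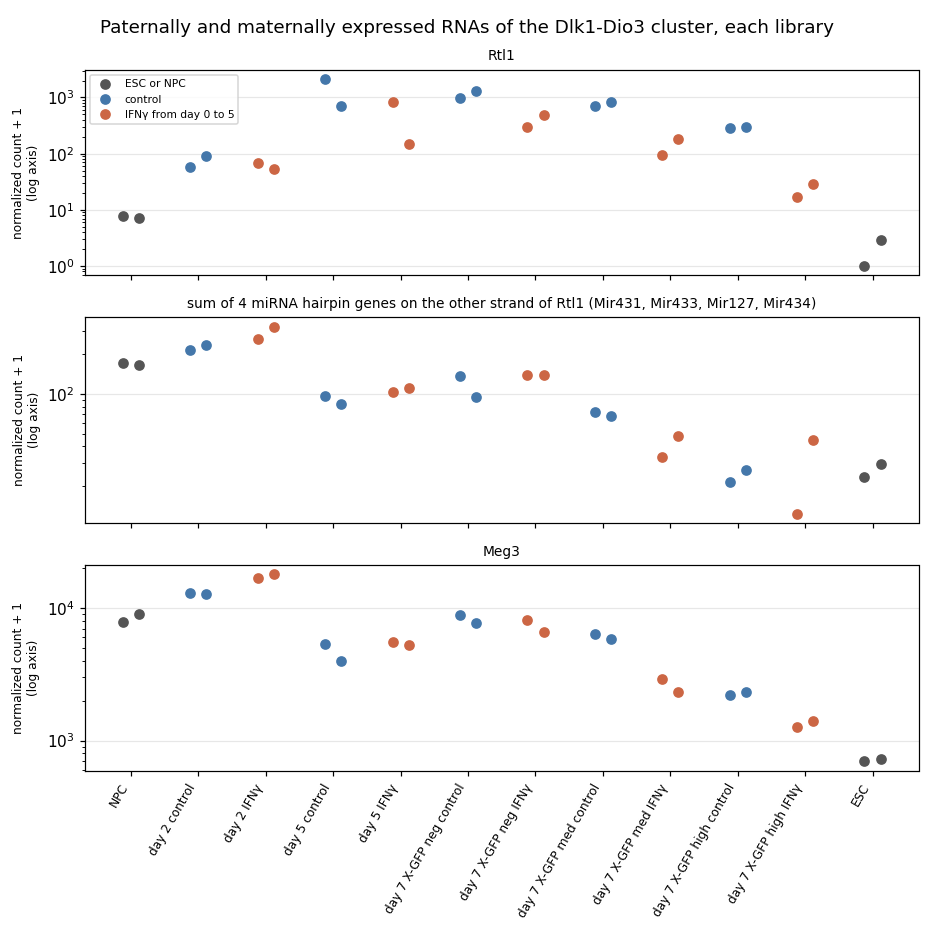
Normalized count + 1 (log axes) of Rtl1, of the sum of 4 miRNA hairpin genes on its other strand and of Meg3 in each library (points) of the 12 populations. The hairpins and Meg3 are highest at day 2, where Rtl1 is under 100, and Rtl1 has its highest means in day 5, X-GFP-negative and X-GFP-medium control cells.

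Of the Kcnq1 cluster, all members measured come from the maternal copy. Phlda2 was lower with IFNγ in each gate, with 279.8 and 344 in control and 120.3 and 206 in treated X-GFP-negative cells (1.91 times) and 294 and 331 against 89.6 and 140.1 in X-GFP-medium cells (2.72 times, limma adjusted p = 0.000165). It changed by -0.53 ± 0.15 in X-GFP-high cells on the log2 scale (SE, limma adjusted p = 0.0226), a call lost without control replicate 1 (0.2). Slc22a18 was 2.16 times lower in X-GFP-negative cells (169 and 188 against 84.8 and 80.2) and also lower in X-GFP-medium cells (log2 -0.98 ± 0.20 (SE)). Cd81 fell 1.91 times in X-GFP-negative cells, from 11305 and 10078 to 5784 and 5397 (limma adjusted p = 1.04e-05), and by smaller amounts in the other gates, where the X-GFP-high call was lost without control replicate 1 (adjusted p = 0.361). Cdkn1c went the other way in X-GFP-medium cells (57.3 and 53.7 in control, 121 and 76.3 with IFNγ, limma adjusted p = 0.0201), with a log2 difference of 0.78 that became 0.45 without IFNγ replicate 1, where the call was lost (adjusted p = 0.115 in limma). So did Ascl2, a placental transcription factor, in X-GFP-high cells (46.4 and 45.9 against 81.1 and 72.8, limma adjusted p = 0.0293), a call lost without either control library (adjusted p up to 0.142).

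The Peg10 cluster was split. Peg10, a retrotransposon-derived gene of the paternal copy, was higher with IFNγ in each gate, with 23090.4 and 21978 in control and 35867 and 35284 in treated X-GFP-negative cells and 18090.0 and 16514 against 34045 and 34816 in X-GFP-medium cells (1.99 times, limma adjusted p = 1.87e-06). It was 1.53 times higher in X-GFP-high cells (limma adjusted p = 0.0002). Ppp1r9a, a scaffold of protein phosphatase 1, rose with it, 1.75 times in X-GFP-medium and 1.29 times in X-GFP-high cells. Sgce, which starts next to Peg10, fell in X-GFP-high cells (701 and 556 to 443 and 276, 1.75 times, limma adjusted p = 0.00602) and X-GFP-medium cells (log2 -0.31 ± 0.12 (SE)), the latter a call lost without control replicate 1 or IFNγ replicate 2 (adjusted p up to 0.274 in limma). Asb4 was 11.5 times higher in X-GFP-negative cells, 7.68 and 10.7 in control and 82.7 and 129.7 with IFNγ, and stayed under 25 normalized counts in the other gates. It was tested in X-GFP-negative cells through the treated arm alone, so no test is given.

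Several members with their highest level in NPCs rose with IFNγ in X-GFP-negative cells. Magel2 had 21.9 and 27.9 in control and 163 and 191 in treated cells of this gate (7.11 times, limma adjusted p = 1.05e-05), Mest 467 and 476 against 1095 and 1526 (2.78 times), Nnat 250.1 and 223 against 555 and 709 (2.67 times), and Ndn, a growth suppressor of neurons, 334 and 322 against 599 and 656 (1.92 times). Peg3 and Usp29 rose with them, by 0.88 ± 0.067 and 0.89 ± 0.29 on the log2 scale (SE), as did Mkrn3 and Zdbf2 by 0.30 and 0.30. The calls of Usp29, Mkrn3 and Zdbf2 were lost when 1 library of this gate was left out, with adjusted p-values up to 0.186, 0.441 and 0.316 in limma. The 6 markers of neural precursors summed to 5594 to 5813 in control and 9208 to 9705 in treated cells of the gate. In X-GFP-medium cells the same sum was lower with IFNγ, 3202 to 3463 in control and 2032 to 2508 in treated cells. It was also lower in X-GFP-high cells, 2011 to 2021 against 1542 to 1722. The part of these markers in the changes of the members was not tested. In X-GFP-medium cells Ndn and Zdbf2 were lower with IFNγ (log2 -0.56 ± 0.14 and -0.53 ± 0.14 (SE)), while Mest and Nnat were 1.26 and 1.45 times higher, and Usp29 rose by 1.06 ± 0.22 on the log2 scale (SE). Magel2 had 9.88 and 7.23 in control and 17.9 and 32.4 in treated X-GFP-medium cells. It was tested there through the treated arm alone, so no test is given. Mest was also 1.39 times higher in the high gate (limma adjusted p = 0.0125), a call lost without control replicate 1 of that gate. The call of Nnat in X-GFP-medium cells was lost without control replicate 2.

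Single members outside the clusters complete the day 7 picture. Plagl1 was 2.51 times lower in X-GFP-medium cells, 726 and 606 in control and 266 and 263 with IFNγ (limma adjusted p = 8.38e-06). Gnas, the stimulatory G protein subunit, was 1.48 times lower in X-GFP-high cells (5688 and 5206 against 3769 and 3605), and its transcripts of different parental origin were counted together. Grb10, the member that fell at day 2, was 1.70 times higher in X-GFP-high cells (177 and 199.6 in control, 327 and 314 with IFNγ, limma adjusted p = 0.00138), and Mcts2 1.34 times. Slc38a4 and Impact were lower in X-GFP-negative cells, with log2 differences of -0.51 ± 0.056 and -0.28 ± 0.058 (SE). Rasgrf1, a Ras exchange factor, was tested in X-GFP-negative cells only and had 14.3 and 20.4 in control and 3.22 and 4.95 in treated cells. It passed the filter on low values through the control arm alone, so no test is given. Zrsr1 was lower in that gate (limma adjusted p = 0.00751). Blcap, H13, a signal peptide peptidase, and Zim1 passed the threshold in none of the 5 comparisons of IFNγ with control, with adjusted p-values from 0.13 to 0.961 for H13 in limma.

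Fibroblast genes fell with IFNγ at day 7 beside Igf2, Rtl1, Dlk1, Phlda2 and Cd81. The list of 10 summed to 8848 to 10450.3 in control and 2258 to 2308 in treated X-GFP-negative cells, 8949 to 9967 against 1601 to 1689.6 in X-GFP-medium cells, and 4092 to 4864 against 1582 to 1740.0 in X-GFP-high cells. Most of the list's counts there were decorin, Dcn (5019.6 and 4472 against 166 and 242 in X-GFP-medium cells), and Fbln2 (4353 and 3907 against 908 and 943). Col1a1 had 126 and 144 against 59.3 and 82.6 there, and Col3a1 22.7 and 12.4 against 28 and 45. No Y-linked sum at day 7 exceeded 12.5, whereas at day 2 it was at least 125. The pluripotency list was higher in the same comparisons, with a sum of 67879 to 69365 in control and 93162 to 97353 in treated X-GFP-medium cells. The part of either in the changes of the members was not tested.

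The IFNγ effect itself differed between gates for a part of the members. In a test of the interaction over 8 libraries, 18 of 34 members differed between the medium and the negative gate (15.7% of all genes), of which 13 were more negative (all genes 8.36%) and 5 more positive (7.31%) in X-GFP-medium cells, or 14 and 1 of 15 when libraries were rescaled to the same total, and 11 and 10 in all without X-GFP-medium control replicate 1 and 2. Among the 18, Asb4 was tested through treated X-GFP-negative cells alone, so its place in the count carries no weight. Peg3 had the lowest adjusted p of the 18, with a difference of -1.004 ± 0.099 on the log2 scale (SE, limma adjusted p = 0.000655), and Ndn differed by -1.49 ± 0.17 (limma adjusted p = 0.00102). Both were higher with IFNγ in X-GFP-negative cells. Dlk1 differed by -2.38 ± 0.38 (limma adjusted p = 0.00524) and Igf2 by -1.35 ± 0.27 (limma adjusted p = 0.0145), so their fall was larger in X-GFP-medium cells. Between X-GFP-high and X-GFP-medium cells 11 of 34 members differed (12.8% of all genes), 6 more positive (all genes 4.71%) and 5 more negative (8.06%) in X-GFP-high cells, but 2 and 3 without X-GFP-medium control replicate 1 and 2, and 3 without either X-GFP-high control library. Plagl1 was called in each of these, and Dlk1 in none. Plagl1 differed by 1.06 ± 0.17 (SE, limma adjusted p = 0.00883) and Dlk1 by 1.67 ± 0.41 (limma adjusted p = 0.036), and both fell further in X-GFP-medium cells. For Igf2 the difference between these gates was -0.14 ± 0.45 (SE, limma adjusted p = 0.89).

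X-GFP-high cells of either arm were compared with the same ESC libraries. In control cells 16 of 33 members were higher than in ESCs (all genes 37.9%) and 10 lower (37.8%, 75.8% called). In IFNγ-treated cells 15 were higher (all genes 33.2%) and 9 lower (33.9%, 67.1% called). Igf2 was 22.1 times the ESC level in control and 2.15 times in IFNγ-treated cells, with 108 and 124 in ESCs, 2746 and 2378 in control and 152 and 347 in treated cells. Without IFNγ replicate 2 the IFNγ-treated cells missed the threshold (adjusted p = 0.105 in limma). Rtl1 was at the floor in ESCs (0 and 1.90), and control cells were at least 99.3 times higher. Rtl1 and Airn had means under 10 in ESCs and were tested through X-GFP-high cells alone. Their place in the counts of both arms thus carries no weight. H19 was 17.3 times the ESC level in control and 11.8 times in IFNγ-treated cells, Sgce 11.3 and 6.48 times, and Meg3 3.19 times in control cells. Dlk1 had 35.4 and 40.0 in ESCs, 57.7 and 63 in control and 24 and 28.9 in treated cells, the last not past the threshold against ESCs (limma adjusted p = 0.15). Peg10 was the reverse case, with 4667 and 4838 in ESCs, 14699.7 and 13002 in control and 20176 and 22179 in treated cells, 4.46 times the ESC level. In the other direction, Mest stayed 4.75 times below ESCs in control and 3.41 times in IFNγ-treated cells, Grb10 4.39 and 2.58 times, Zdbf2 2.76 and 2.80 times, and Ndn 2.03 and 2.10 times.

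**Figure D5:**
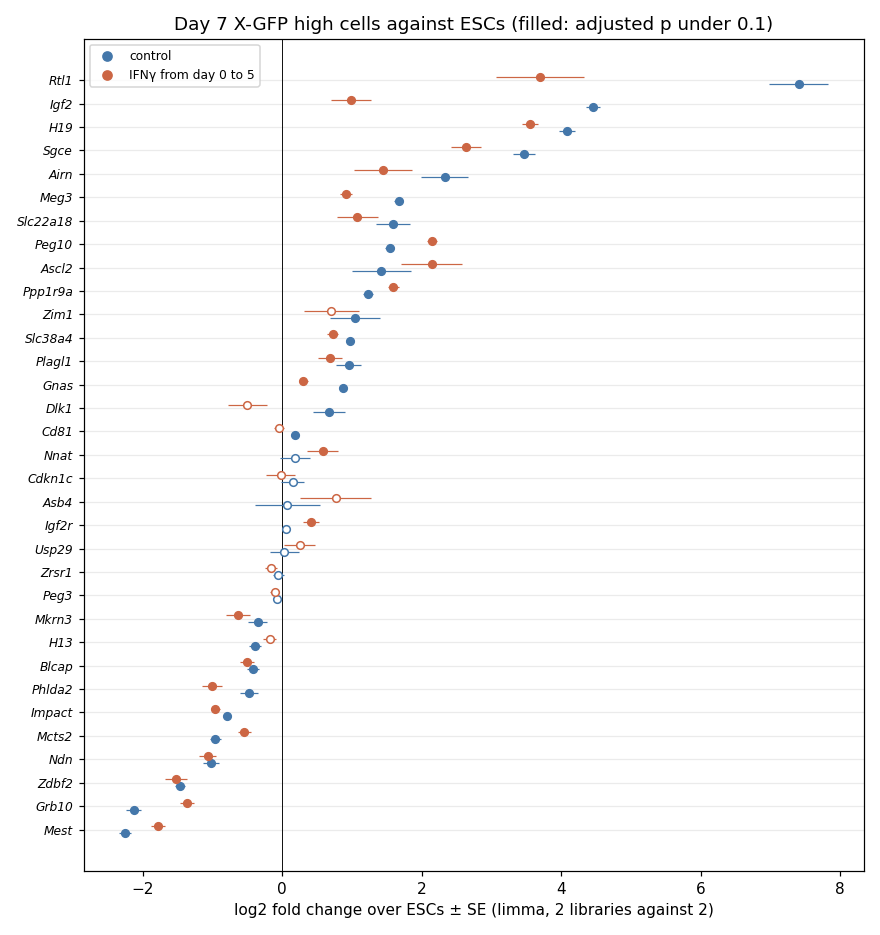
Log2 fold change of the members (rows) in X-GFP-high cells against ESCs, with its SE as bar, in control (blue) and IFNγ-treated cells (orange). Both arms lie right of 0 for H19, Sgce and Peg10, and the orange points of Igf2 and Rtl1 are several log2 units closer to 0 than the blue ones.

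Genes that keep or reset imprints were followed from a list of 15. All 15 were tested at day 7. With IFNγ 10 of them rose (all genes 31.1%) and 3 fell (30.8%) in X-GFP-negative cells, 9 rose (33.3%) and 2 fell (29.6%) in X-GFP-medium cells, and 7 rose (18.1%) and 1 fell (20.4%) in X-GFP-high cells. Zfp57 rose in each gate, with 7145 and 7249 in control and 11675 and 10923 in treated X-GFP-medium cells (log2 0.65 ± 0.059 (SE), limma adjusted p = 1.2e-05), and ESCs had 11537 and 11554. Its partner Trim28 rose by 0.79 ± 0.061 on the log2 scale (SE, limma adjusted p = 4.44e-06) in the same cells. The methylase Dnmt3b rose by 1.79, 1.64 and 0.94 in the order of the gates and its cofactor Dnmt3l by 1.36, 1.40 and 0.57. Tet1, which oxidizes methylated cytosine, rose by 0.89, 1.10 and 0.49. Dppa3, a protector of maternal imprints in the egg, was higher in the first and second gates (0.53 and 0.37) and lower in X-GFP-high cells (-0.52, limma adjusted p = 0.000839). At day 2 Uhrf1 was the single gene of 13 tested past the threshold, and at day 5 Zfp57 of 15, both higher with IFNγ (log2 0.23 and 0.38).

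Other genes, a list of 20 mostly from the members' clusters, with hosts of nested members included, were followed beside the members. Not all of them lie in a cluster that holds a member, and Sfmbt2 does not. The list was not limited to genes without imprinting. At day 7, 4 of 17 tested rose and 5 fell with IFNγ in X-GFP-negative cells, 3 of 17 rose and 8 fell in X-GFP-medium cells, and 1 of 15 rose and 2 fell in X-GFP-high cells, where 61.9%, 62.9% and 38.5% of all genes passed the threshold. Dio3, the thyroid hormone deiodinase at the end of the Dlk1-Dio3 cluster, had 177 and 247 in control and 51.5 and 75.2 in treated X-GFP-negative cells (log2 -1.73 ± 0.23 (SE), limma adjusted p = 0.000237), and was lower in the other gates as well (-0.996 and -0.45). Osbpl5, an oxysterol-binding protein gene of the Kcnq1 cluster, had log2 differences of -1.27, -2.07 and -1.88 in the order of the gates. Cobl, an actin nucleator next to Grb10, rose by 1.38, 1.37 and 0.75, and ESCs had 2582 and 2692. At day 2 Sfmbt2 alone of 18 tested passed the threshold (log2 0.56, higher with IFNγ), and at day 5 limma called 0 of 16 tested. Both lists were chosen with earlier results of these data known, so their counts are a description.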

How the data were processed

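RNA-seq was performed on 24 libraries, 2 for each of 12 populations, from ribosomal RNA-depleted stranded total RNA. The authors masked SNPs of 129S1/SvImJ and CAST/EiJ in mm10, aligned reads with STAR using its WASP filter, counted them with HTSeq 0.6.1 and divided the counts by 1 DESeq2 size factor per library. The deposited values are these normalized counts, a signal without gene length correction. They are whole multiples of 1 step per library (tolerance 0.01), from which whole reads were recovered, 24746109 to 37056508 per library. The strand setting of the counting is not given in the sources used here.

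Identifiers were named through GENCODE vM21 (95.0% of 37315 rows matched). Each of 13 pairwise comparisons was fitted with limma 3.58.1 (R 4.3.3; lmFit and eBayes with trend) on log2(normalized count + 1), so fold changes of low genes are understated, over the genes with a mean above 10 in its 4 libraries, and 3 differences of IFNγ effects over 8 libraries. Tests were two-sided, p-values were adjusted by Benjamini-Hochberg over all genes tested, and the threshold was 0.1. Fold values are ratios of mean normalized counts. An exact test of 2 against 2 libraries cannot go below 0.333. The labels do not say that replicates were separate cultures, and the study's methods call replicates independent where they describe a score from these libraries, without saying how, so p-values may measure technical spread in part. Replicate pairs differed by more than sampling noise (chi-square per degree of freedom from 3.35 to 20.7). Named with fold and adjusted p were members past the threshold with a mean of at least 100 in either group and no overlap of libraries, at most 5 in each direction by size of change. Others were named after their values were seen. No test is given in the text for members tested through 1 group alone. A floor of 3 reads per library bounds the folds of genes near 0 and covers counting error only. The members and lists were chosen with earlier results of these data known. Every test of the members was recomputed with libraries rescaled to the same total, with a replicate block, without each library, in 1 fit of all 24 libraries, without the filter and with 0.1 as pseudocount, and the 13 pairwise comparisons also with DESeq2 1.42.0 and edgeR 4.0.16 on the recovered reads. The fits were tested on simulated data. A deposited file of X mus proportions of X-linked genes was not used here. Promoters and miRNAs are from RefSeq on GRCm38.p6. Sequences for the starts of Sgce, H19, Rtl1, Impact, Peg10, Cdkn1c and Peg13 were not used here.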

Additional observations from a re-analysis of the deposited data

Results flagged for a closer look

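The IFNγ effect of these members differed between day 7 gates by the limma interaction test (8 libraries each, adjusted over all genes). Values are differences of log2 fold changes. X-GFP-medium minus X-GFP-negative, the difference was -2.38 for Dlk1 (adjusted p = 0.00524), -1.49 for Ndn (0.00102), -1.38 for Magel2 (0.0843) and -1.35 for Igf2 (0.0145), which were more negative in X-GFP-medium cells. For Asb4 it was -3.85, but Asb4 had means under 10 in every group except treated X-GFP-negative cells. It was tested through that group alone, so no test is given. The difference was 1.32 for Cdkn1c (0.0857), 0.50 for Igf2r (0.031), 0.35 for Slc38a4 (0.0308), 0.34 for Peg10 (0.0297) and 0.29 for Cd81 (0.0766), which were more positive in X-GFP-medium cells. The calls of Cdkn1c, Slc38a4, Peg10 and Cd81 were lost when libraries were rescaled to the same total. When 1 library was left out, the calls of these 4 and of Magel2 and Igf2r were lost, and those of Dlk1, Ndn and Igf2 were not.

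X-GFP-high minus X-GFP-medium, the difference was 1.67 for Dlk1 (adjusted p = 0.036), 1.06 for Plagl1 (0.00883), 0.94 for Phlda2 (0.0602), 0.47 for Meg3 (0.0749) and 0.41 for Cd81 (0.0306). These genes fell with IFNγ in X-GFP-medium cells, and their values in X-GFP-high cells were closer to 0. It was -0.84 for Usp29 (0.0916), -0.63 for H19 (0.0329), -0.63 for Igf2r (0.0585), -0.43 for Ppp1r9a (0.0315) and -0.38 for Peg10 (0.0602), with values in X-GFP-high cells closer to 0 than in X-GFP-medium cells, except that H19 fell in X-GFP-high cells. All but Plagl1 lost the call when 1 of the control libraries was left out. The cause was not tested.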

How the results depend on the processing

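The 134 calls that met the rule for naming include members tested through 1 group alone, such as Asb4 in X-GFP-medium minus X-GFP-negative IFNγ effects. Such calls carry no weight and were not taken out, so the totals are a description only. The 134 calls were recomputed 1524 times with another setting. Of these, 1393 kept the call, 131 lost it and 0 changed direction. Of the lost ones, 22 were in 1 fit of all 24 libraries, 16 without a filter on low values, 6 with libraries rescaled to the same total, 5 in DESeq2, 1 with a pseudocount of 0.1, 0 in edgeR and the others without 1 library. The cause was not tested. In 1 fit of all 24 libraries, members past the threshold numbered 3 for IFNγ at day 2, 4 at day 5, 13 for X-GFP-medium against X-GFP-negative control cells, 11 for X-GFP-medium minus X-GFP-negative IFNγ effects and 5 for X-GFP-high minus X-GFP-medium. Without a filter they numbered 12 for IFNγ in X-GFP-high cells and 3 for X-GFP-high minus X-GFP-medium. DESeq2 called 4 at day 5. Leaving out 1 library gave 5 to 9 members at day 2, 0 to 8 at day 5, 21 to 27, 20 to 26 and 11 to 22 in the day 7 gates in order, 27 to 30 for day 2 against NPCs, 24 to 27 for day 5 against day 2, 20 to 31 for X-GFP-negative cells against day 5, 16 to 24 and 23 to 26 for the steps between gates, 30 to 31 for ESCs against NPCs, 24 to 26 and 23 to 25 for X-GFP-high control and IFNγ-treated cells against ESCs, and 0 to 2, 10 to 19 and 2 to 13 for the differences of IFNγ effects in the order of days and gates. A group left with 1 library was assumed to vary like the other.

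The replicate numbers of the labels say nothing of a shared culture, and deviations of same-numbered libraries correlated by 0.31 at day 2, 0.26 at day 5 and 0.12 at most elsewhere. With 2 pairs a comparison this does not establish a pairing, and the samples are taken to share only a number. With the replicate block 18 members passed at day 2 and 12 at day 5, Rtl1 and H19 among the latter, and no other count moved by over 1.5 times. With numbers crossed for day 2 control cells against NPCs, chosen after seeing a correlation of -0.12, 30 passed. DESeq2 and edgeR were not run for the differences of IFNγ effects. The depth limits values near 3 reads. At this floor were Slc22a18 in NPCs, Rtl1 and Magel2 in ESCs and Rasgrf1 in 7 populations, and Phlda2 and Ascl2 in NPCs were little above it.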
